A study of Mus musculus with 6 samples.

Results

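The B cell genes Cd79a, Cd79b, Ms4a1, Cd22, Pax5 and Blk were followed through 6 tumors of NT3 transgenic mice. They were found by symbol, and all 6 were present among the 23358 entries of the gene table. RNA was sequenced from whole tumors of 6 female mice, 3 Osx-Cre;NT3 and 3 FSP1-Cre;NT3. Every tumor carried NT3, a form of NF-κB-inducing kinase (NIK) that lacks its TRAF3-binding domain and is switched on by Cre. In Osx-Cre;NT3 mice, Cre was driven by the Osterix (Sp7) promoter in mice of mixed C57Bl/6J and CD1 strains, and doxycycline chow kept it off until weaning. In FSP1-Cre;NT3 mice it was driven by the S100a4 promoter on an FVB/n background, and the NT3 parents of both crosses were C57Bl/6J. Neither driver is limited to mesenchymal cells, since both are known to recombine in some blood cells as well. Tumors are named by mouse number. Tumors 13, 18 and 25 were Osx-Cre;NT3 trunk tumors with latencies of 150, 168 and 115 days. Tumors 27 and 36 were FSP1-Cre;NT3 perineal tumors with latencies of 101 and 52 days, and tumor 29 was an FSP1-Cre;NT3 trunk tumor with a latency of 72 days. Both perineal tumors therefore came from 1 line, and latency was shorter in every FSP1-Cre;NT3 tumor. The paper also gives a higher average RNA integrity score for FSP1-Cre;NT3 than for Osx-Cre;NT3 tumors. Line, strain background, doxycycline feeding and latency, and in part site and RNA integrity, cannot be told apart.

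B cells recognise antigen through a membrane immunoglobulin that cannot signal alone. The signal is carried by Igα and Igβ, the products of Cd79a and Cd79b, which pair with each other and reach the cell surface together with the immunoglobulin. Src family kinases, among them the product of Blk, start the signal, and CD22, a lectin that binds sialic acid, dampens it. Ms4a1 encodes CD20, a membrane protein of mature B cells, and Pax5 encodes the transcription factor that commits progenitors to the B lineage and activates Cd79a. When a B cell becomes an antibody-secreting plasma cell, Pax5 and Ms4a1 are turned down. NIK drives the alternative NF-κB pathway, which B cells use downstream of the receptor for the survival factor BAFF.

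On GRCm38 (mm10), the deposited positions were 7:24897511-24902197 for Cd79a, 11:106311341-106314529 for Cd79b, 19:11250603-11266151 for Ms4a1, 7:30865404-30880342 for Cd22, 4:44531506-44710440 for Pax5 and 14:63372837-63417187 for Blk. In GENCODE M21, exons of Cd22 overlapped those of Gm29439 and exons of Pax5 overlapped those of 5730488B01Rik and Gm12462, all on the opposite strand. Strand use in the counting was not given in the sources used here, so reads of these genes may not be separated from those partners. Exons of Cd79a, Cd79b, Ms4a1 and Blk overlapped no other annotated gene. Of the 6 genes, 3 (Cd79a, Cd22 and Pax5) had a RefSeq promoter window, which runs from 250 bases before the start site to 50 after it. The stretch before the annotated Cd79a gene is shown because Cd79a varied most among the tumors. It covers 134 bases of GRCm38.p6 at chr7:24897247-24897380 on the plus strand, with the match to the E box CAGGTG in capitals.
Cd79a: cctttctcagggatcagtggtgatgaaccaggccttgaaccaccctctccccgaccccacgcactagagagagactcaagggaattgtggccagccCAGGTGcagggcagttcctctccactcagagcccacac
The E box was searched on both strands and was found in 20.2% of 32851 windows of 300 bases. The octamer ATGCAAAT (1.74% of windows), the EBF core CCCNNGGG (13.7%) and the κB consensus (8.46%) had no match in the Cd79a window. The search took exact letters, so matches of this kind, and the lack of them, describe the letters only and not whether a factor binds.

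Reads were counted per gene without normalization. Total counts ran from 51824408 in tumor 13 to 163297772 in tumor 18, and a ribosomal RNA entry, Rn45s, took from 5.28% to 13.3% of them. Levels are given as CPM, in which each count is divided by its TMM-scaled library size, and levels of different genes are compared in the authors' RPKM, which allows for gene length. Every deposited count was even, as a table that counts each pair at both ends would be. Read in this way, a count of 0 allows up to 3 pairs or 6 counts, which by library size alone correspond to between 0.0367 and 0.116 CPM. Such limits cover counting error only.

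The 6 genes did not move as a group. Cd79a and Ms4a1 were low and varied widely, Cd79b, Cd22 and Blk had higher means and were steadier, and Pax5 lay near the limit of detection. This grouping was made after the values were seen.

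Cd79a had 0.124, 1.26 and 0.225 CPM in Osx-Cre;NT3 tumors 13, 18 and 25, and 1.38, 0.667 and 5.38 CPM in FSP1-Cre;NT3 tumors 27, 29 and 36. These values rest on 6, 194, 16, 90, 52 and 344 counts, the first of them at the limit of 6 counts. Tumor 36 stood highest and tumor 13 lowest, with the lines overlapping because tumor 18 exceeded tumor 29. Between the highest and the lowest tumor the level differed 43.3-fold (95% exact interval 14.5 to 211, on halved counts and for counting error only). Means by line were 0.537 ± 0.629 (Osx-Cre;NT3) and 2.48 ± 2.54 CPM (FSP1-Cre;NT3), with SD over 3 tumors each.

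Ms4a1 had 0.0828, 0.39 and 0.0563 CPM in tumors 13, 18 and 25, and 0.491, 0.231 and 1.09 CPM in tumors 27, 29 and 36. The order of the tumors was that of Cd79a, except that tumors 13 and 25, with 4 counts each and so below the limit of 6 counts, changed places. The highest tumor exceeded the lowest 19.4-fold (interval 4.98 to 166). Means by line were 0.176 ± 0.185 (Osx-Cre;NT3) and 0.605 ± 0.443 CPM (FSP1-Cre;NT3), with SD over 3 tumors each. In whole tumors, fewer B cells and less RNA per B cell cannot be told apart.

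Cd79b, whose product is the partner of that of Cd79a, had 6.79, 10.8 and 6.53 CPM in tumors 13, 18 and 25, and 7.21, 7.90 and 8.35 CPM in tumors 27, 29 and 36. The lines overlapped, and tumor 18 was highest. The full range was 1.65-fold (interval 1.42 to 1.92), and the line means of 8.04 ± 2.38 (Osx-Cre;NT3) and 7.82 ± 0.571 CPM (FSP1-Cre;NT3), with SD over 3 tumors each, differed by less than their spread.

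Cd22 had 9.61, 7.34 and 5.32 CPM in tumors 13, 18 and 25, and 9.12, 6.36 and 7.19 CPM in tumors 27, 29 and 36. Here tumor 13, the lowest for Cd79a, was the highest. The range was 1.80-fold (interval 1.48 to 2.20), and the line means of 7.42 ± 2.14 and 7.56 ± 1.41 CPM (SD, n = 3 each) differed by less than their spread.

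Blk had 9.98, 11.4 and 11.6 CPM in tumors 13, 18 and 25, and 8.81, 9.29 and 4.53 CPM in tumors 27, 29 and 36. Each FSP1-Cre;NT3 tumor lay below each Osx-Cre;NT3 tumor, and tumor 36, the highest for Cd79a, was the lowest. The range was 2.55-fold (interval 2.11 to 3.12), with line means of 11 ± 0.883 (Osx-Cre;NT3) and 7.54 ± 2.62 CPM (FSP1-Cre;NT3), with SD over 3 tumors each.

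Pax5 had 0.0414, 0.104 and 0.169 CPM in tumors 13, 18 and 25, and 0.0307, 0.0257 and 0.156 CPM in tumors 27, 29 and 36. Tumors 13, 27 and 29 had 2 counts each, below the limit of 6 counts, and the highest tumor by CPM, tumor 25, had 12. The ratio of the highest to the lowest level was 6.59 with an interval of 0.799 to 303, so no difference in Pax5 among the tumors was detectable at this depth.

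**Figure D1:**
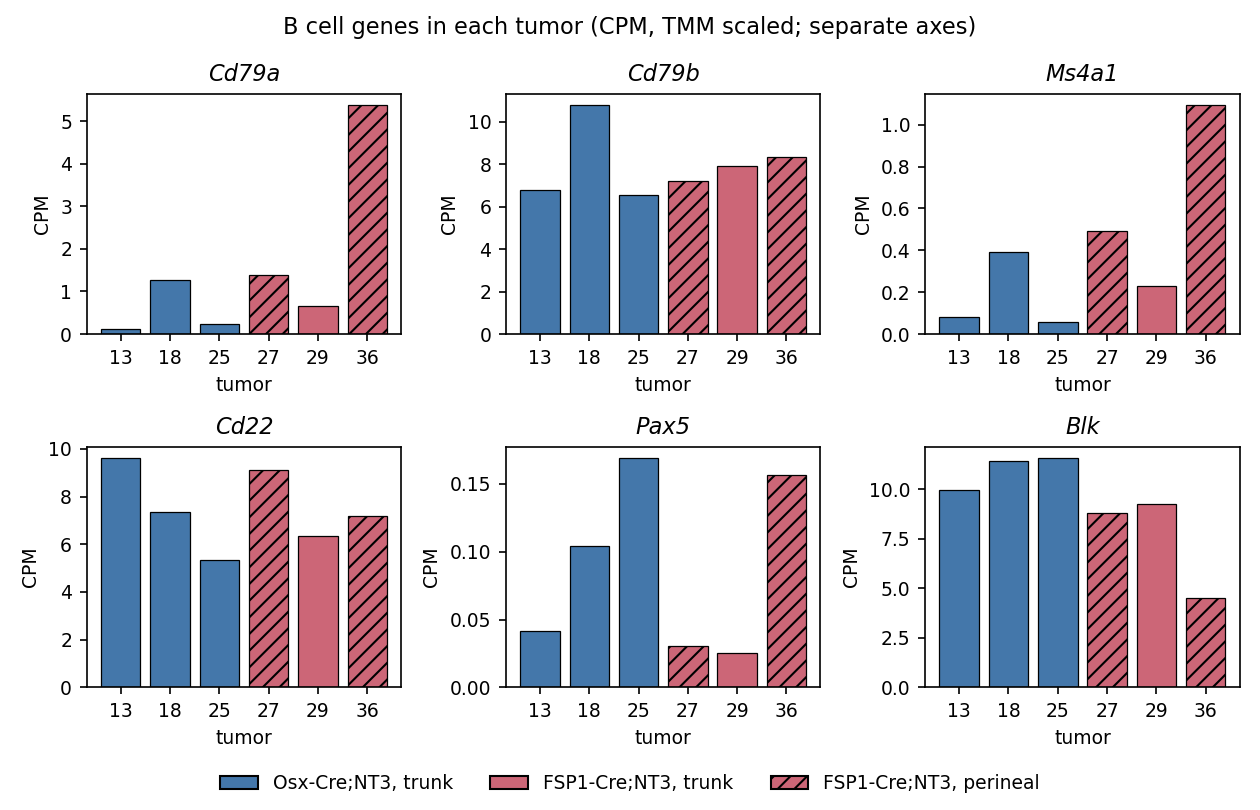
Level of each of the 6 genes (CPM, TMM scaled, vertical axis from 0 and separate for each gene) in the 6 tumors, named by mouse number. Blue bars are Osx-Cre;NT3 and red bars FSP1-Cre;NT3 tumors, and hatched bars are perineal. Cd79a and Ms4a1 peak in tumor 36 at 5.38 and 1.09 CPM, while Cd79b and Cd22 are similar in height throughout and Blk is lowest in tumor 36 at 4.53 CPM.

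Per length, the order of the mean levels was Cd79b with 5.29 ± 0.921 RPKM (SD, n = 6 tumors), Blk with 2.99 ± 0.804, Cd22 with 1.39 ± 0.321, Cd79a with 0.92 ± 1.2, Ms4a1 with 0.154 ± 0.152 and Pax5 with 0.0581 ± 0.0432 RPKM. Cd79b exceeded Blk, Blk exceeded Cd22 and Cd79a exceeded Ms4a1 in 6 of 6 tumors. For each of these pairs the two-sided exact permutation test on log2 ratios gave p = 0.0312, the smallest that 6 tumors allow, and 0.0521 after adjustment over the 5 pairs of neighbours. Cd22 exceeded Cd79a in 5 of 6 tumors (exact permutation p = 0.125, adjusted 0.156), tumor 36 being the exception. Ms4a1 exceeded Pax5 in 5 of 6 tumors (exact permutation p = 0.219, adjusted 0.219), and the exception was tumor 25. The pairs and their direction were taken from the order of means in these same tumors, so the p-values give that order no independent support.

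Igα and Igβ act as a pair, but the RNAs of their genes were far from a fixed proportion. The ratio of Cd79b to Cd79a in RPKM was 60.6 in tumor 13, 9.48 in tumor 18 and 32.1 in tumor 25. In the FSP1-Cre;NT3 tumors it was 5.78 in tumor 27, 13.1 in tumor 29 and 1.72 in tumor 36. Cd79b thus exceeded Cd79a in every tumor, with a median ratio of 11.3 and a 35.2-fold range. On 6 counts of Cd79a the ratio of tumor 13 is the least precise. Against the other steady genes Cd79a moved as it did against Cd79b. The RPKM ratio of Cd22 to Cd79a ran from 23.8 in tumor 13 to 0.411 in tumor 36, and that of Blk to Cd79a from 43.1 to 0.452 in the same tumors, so that Cd79a exceeded both in tumor 36 alone. The ratio of Cd79a to Ms4a1 stayed between 2.33 and 7.62.

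**Figure D2:**
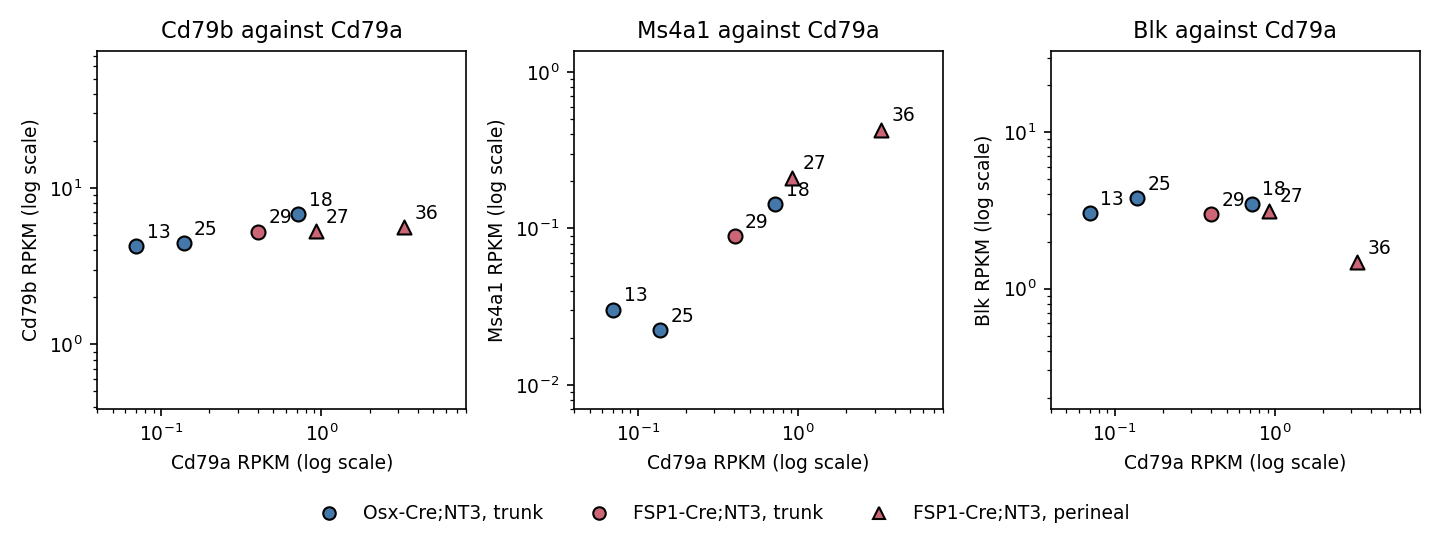
RPKM of Cd79b, Ms4a1 and Blk (vertical axes) against Cd79a (horizontal axis) in the 6 tumors, on log scales that span the same fold range in each panel. Circles are trunk and triangles perineal tumors, blue Osx-Cre;NT3 and red FSP1-Cre;NT3. Ms4a1 climbs with Cd79a from tumors 13 and 25 to tumor 36, Cd79b runs flat between 4.26 and 6.82 RPKM, and Blk is flat except for tumor 36 at 1.48 RPKM.

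Correlations of log2 CPM (prior count 2) over the 6 tumors were computed for all 15 pairs of the 6 genes. That of Cd79a with Ms4a1 was r = 0.97 (two-sided exact permutation p = 0.00833, adjusted 0.125 over the 15 pairs) and rho = 0.943 (exact permutation p = 0.0167, adjusted 0.25). Without tumors 13 and 36, the farthest from the median of Cd79a, r was 0.996, and without tumor 36 alone it was 0.951. Cd79a and Cd79b had r = 0.57 (exact permutation p = 0.244, adjusted 0.701) and rho = 0.657 (p = 0.175, adjusted 0.525), with r = 0.617 without the same 2 tumors. Cd79a and Blk had r = -0.75 (exact permutation p = 0.0917, adjusted 0.458) and rho = -0.714 (p = 0.136, adjusted 0.51). That relation rests on tumor 36, since r was -0.27 without it. No pair passed after adjustment, 1 had an unadjusted p of r under 0.05, and 7 pairs had a negative r. Each line holds 3 tumors and the sites hold 2 and 4, too few for a correlation within line or site.

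The question between the lines was whether tumors raised through the FSP1 promoter differ in these genes from those raised through the Osterix promoter. No member passed. By edgeR's quasi-likelihood test, adjusted by the Benjamini-Hochberg method over 16415 genes, 0 of the 5 members tested had an adjusted p-value under 0.05, where 0% of all genes did, and 0 had an unadjusted p under 0.05, where 10.8% of all genes did. DESeq2 also called 0 members, and 2.56% of all genes. Pax5 was too low to test. The log2 fold change, positive where FSP1-Cre;NT3 tumors were higher (n = 3 per line), was 2.17 for Cd79a (standard error 1.11, adjusted p = 0.471) and 1.71 for Ms4a1 (0.92, adjusted p = 0.48). It was -0.54 for Blk (standard error 0.34, adjusted p = 0.515), -0.04 for Cd79b (0.30, adjusted p = 0.962) and 0.03 for Cd22 (0.33, adjusted p = 0.978). The median of the 5 was 0.03, against 0.01 over all genes tested. Without tumor 36 the log2 fold changes of Cd79a and Ms4a1 were 0.90 and 0.96, and that of Blk was -0.28. Among trunk tumors alone, with tumor 29 as the lone FSP1-Cre;NT3 tumor, they were 0.28 (standard error 1.42) for Cd79a and 0.33 (standard error 1.44) for Ms4a1, values that do not separate line from site. Without tumor 18, the Osx-Cre;NT3 tumor with the most of both, they were 3.79 and 3.10 (adjusted p = 0.557 and 0.566). The CPM of the lines did not overlap for 1 member, Blk, lower in FSP1-Cre;NT3 tumors as for 7.97% of all genes, and 9.03% of genes lay wholly above.

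The tumors were also compared by site. Cd79a and Ms4a1 were higher in both perineal tumors than in any trunk tumor, but neither passed the test. In the 2 perineal tumors Cd79a had 3.38 ± 2.83 CPM (SD) and in the 4 trunk tumors 0.569 ± 0.517 CPM (SD), a log2 fold change of 2.54 with a standard error of 0.94 and an edgeR adjusted p of 0.411. Ms4a1 had 0.793 ± 0.426 and 0.19 ± 0.154 CPM (SD), a log2 fold change of 2.01 with a standard error of 0.85 and an edgeR adjusted p of 0.475. Both had an unadjusted p under 0.05, as did 10.5% of the 16971 genes tested. Blk had 6.67 ± 3.02 CPM (SD) in perineal and 10.6 ± 1.12 CPM (SD) in trunk tumors, and Cd22 had 8.15 ± 1.36 and 7.16 ± 1.83 CPM (SD). The log2 fold change was -0.67 for Blk (standard error 0.36, adjusted p = 0.549), 0.18 for Cd22 (0.35, 0.862), -0.05 for Cd79b (0.33, 0.967) and 0.10 for Pax5 (1.05, 0.978). Of all genes edgeR called 0% and DESeq2 3.54%, and of the 6 members each called 0. Their median was 0.14, against -0.02 over all genes. Both perineal tumors lay above all trunk tumors for Cd79a and Ms4a1, as 9.98% of all genes did, and below them for Blk, as 9.57% did, and these counts of 2 and 1 of 6 members were not tested. Without tumor 36, which leaves a lone perineal tumor assumed to vary like the others, the log2 fold change was 1.26 for Cd79a, 1.33 for Ms4a1 and -0.26 for Blk. Other tumors moved the values the opposite way. Without tumor 18 it was 3.29 for Cd79a and 2.64 for Ms4a1, and without tumor 27, which again leaves a lone perineal tumor, it was 3.15 for Cd79a and -1.26 for Blk, still with no adjusted p under 0.05. Within the FSP1-Cre;NT3 line, where tumor 29 is the lone trunk tumor, it was 2.32 for Cd79a (adjusted p = 0.993), 1.76 for Ms4a1 and -0.48 for Blk.

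**Figure D3:**
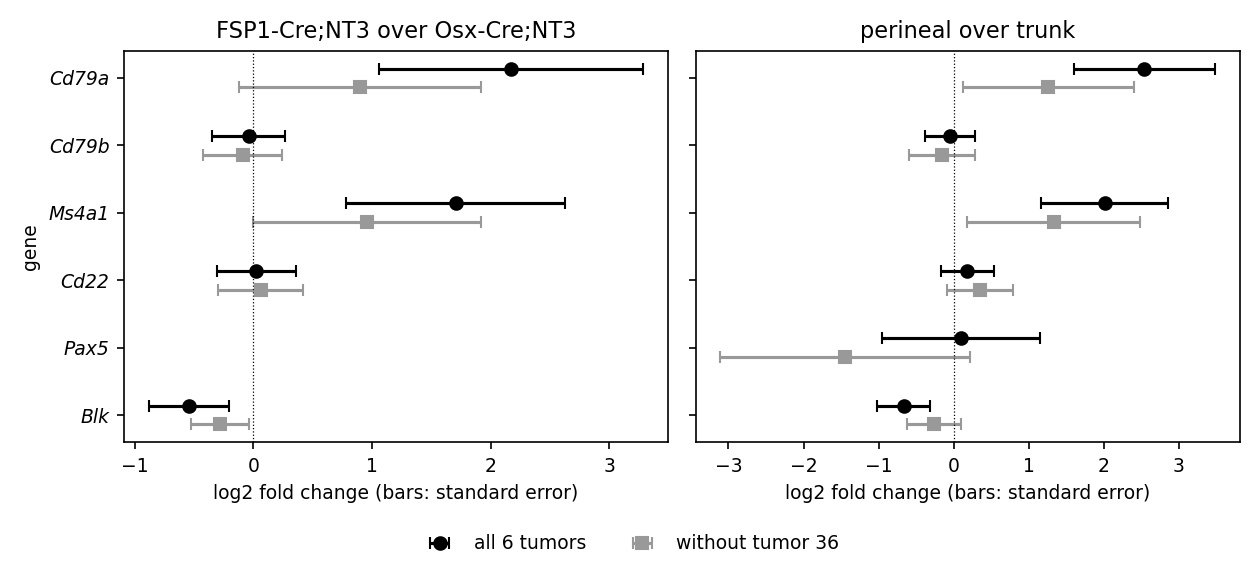
Log2 fold change (horizontal axis) of each gene (vertical axis) between the lines (left) and between the sites (right), from edgeR with all 6 tumors (black circles) and without tumor 36 (grey squares). Bars are standard errors, and Pax5 was not tested between the lines. Cd79a and Ms4a1 lie to the right in both panels with wide bars and move toward 0 without tumor 36, while Cd79b and Cd22 lie near 0.

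Other genes of the B lineage were taken from lists chosen with earlier results of these data known. Beside the most abundant of each list, genes are named below for a call, an unadjusted p or a count of 0, and these were chosen after their values were seen. Of 10 further B cell surface genes, all were tested, edgeR called 0 in either comparison, and DESeq2 called 0. Unadjusted p under 0.05 was reached by 1 between the lines (Fcrl1, lower in FSP1-Cre;NT3 tumors) and by 1 between the sites (Faim3, higher in perineal tumors). The median log2 fold change was 0.31 between the lines and 0.51 between the sites. The most abundant were Cr2, a complement receptor that follicular dendritic cells also carry, with 33.2 ± 19.5 CPM (SD, n = 6 tumors), Cd72 with 17.0 ± 6.30 and Cd37 with 11.3 ± 2.64 CPM. Tumor 36 was the highest for 5 of the 10, but the lowest for Cr2, with 10.4 CPM, and for Fcrl1, with 1.00 CPM. The share of all genes that were highest or lowest in tumor 36 is not given, so such counts, here and below, only describe the lists.

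Some plasma cell genes spread farther than any member. Igj, which encodes the chain that joins secreted IgM and IgA, had 4.22, 161 and 1.49 CPM in tumors 13, 18 and 25 and 67.2, 45.7 and 814 CPM in tumors 27, 29 and 36, a 545-fold range. Tumor 36 was highest and tumors 13 and 25 were lowest, as for Ms4a1. The gene of the chaperone MZB1, listed as 2010001M09Rik and named after its values were seen, had the same order of tumors as Igj and ran from 0.0563 CPM, which is below the limit of 6 counts, to 21.5 CPM. Tumor 36 was the highest for 7 of the 8 genes of the list, a count again given without the share over all genes. The exception was Sdc1, with 609 ± 137 CPM (SD, n = 6 tumors), which epithelia also express. Xbp1 had 152 ± 49.8 CPM. The median log2 fold change of the 8 genes was 1.56 between the lines and 1.80 between the sites. edgeR called 0 in either comparison, and Prdm1 and Irf4 had an unadjusted p under 0.05 in both. DESeq2 called 0 between the lines and 1, Irf4, between the sites. It gave no p for Igj in either comparison or for 2010001M09Rik between the lines, so these were not tested by it. Immunoglobulin heavy and light chain genes were not analysed here.

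**Figure D4:**
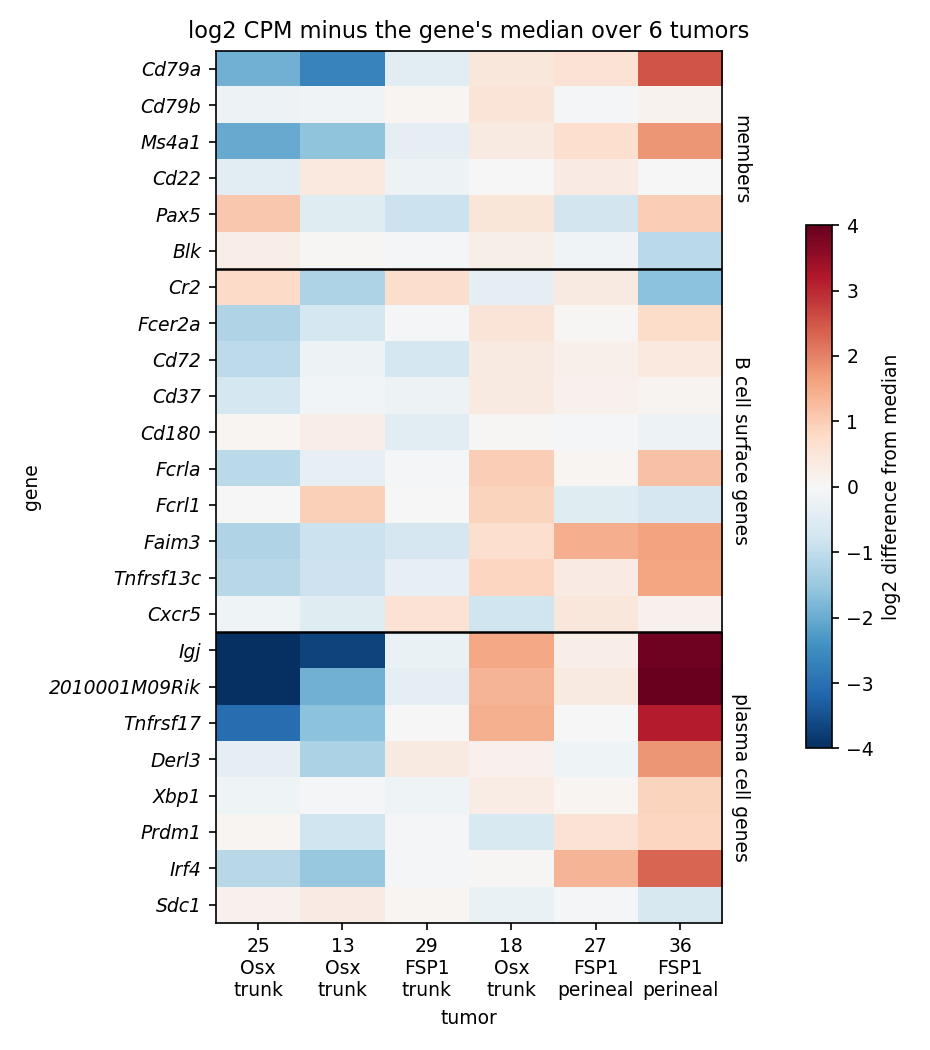
Log2 CPM of the 6 genes, of 10 further B cell surface genes and of 8 plasma cell genes (rows) minus each gene's median over the 6 tumors. Columns are tumors from the lowest to the highest Ms4a1, red is above and blue below the median, and colours saturate at the ends of the scale. Cd79a, Ms4a1, Igj and 2010001M09Rik turn from blue in tumors 25 and 13 to red in tumor 36, while the rows of Cd79b and Cd22 stay pale.

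The transcription factors of the B lineage were led by Spib with 466 ± 175 CPM (SD, n = 6 tumors), Irf8 with 56.7 ± 11.6 and Ciita, the activator of MHC class II genes, with 28.6 ± 19.2 CPM, genes that other immune or epithelial cells can also use. Of the 8, edgeR called 0 in either comparison, with 1 at an unadjusted p under 0.05 between the lines (Ciita) and 2 between the sites (Ikzf3 and Ciita). DESeq2 called Ciita in both. Tumor 36 was the highest for 0 of the 8. Among 10 genes that carry the signal onward from the receptor, the most abundant were Blnk, an adaptor, with 169 ± 37.3 CPM, and the kinase genes Syk with 113 ± 47.3 and Lyn with 98.8 ± 18.9 CPM. edgeR and DESeq2 called 0 of the 10, and 0 had an unadjusted p under 0.05 in either comparison. Blnk was lowest in tumor 36, at 97.6 CPM, as Blk was, and every other tumor had at least 162 CPM.

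Genes of B cell precursors were all under 1 CPM in all 6 tumors, and 2 of the 7 could be tested, with 0 called by edgeR or DESeq2 and 1, Vpreb1, at an unadjusted p under 0.05 between the sites. Of 4 germinal center genes, S1pr2 had 25.9 ± 0.805 CPM and Bcl6 22.7 ± 7.96 CPM (SD, n = 6 tumors). edgeR and DESeq2 called 0 of the 4, with 0 at an unadjusted p under 0.05, but DESeq2 gave no p for Rgs13 between the lines. Of 12 genes of B cell recruitment and survival, Ltbr had 76.9 ± 6.40 CPM and Ltb 50.8 ± 16.0 CPM. Cxcl13, which attracts B cells through Cxcr5 and is named after its values were seen, had 0.29, 9.02 and 0.141 CPM in tumors 13, 18 and 25 and 4.79, 4.16 and 15.6 CPM in tumors 27, 29 and 36. It shared with Ms4a1 the highest tumor and the lowest tumor. Of the 11 genes tested by edgeR, 0 were called and 0 had an unadjusted p under 0.05. DESeq2 also called 0, but it gave no p for Cxcl13 between the lines. Ccl21a was at 0 counts in every tumor.

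Markers of other cells varied along with the members or did not. The pan-leukocyte gene Ptprc ran from 52.8 to 115 CPM and was highest in tumor 36 and second in tumor 27, as Cd79a was. The 8 T cell markers, led by Cd3g with 24.7 ± 15.9 CPM (SD, n = 6 tumors) and Cd4 with 23.3 ± 8.02 CPM, summed to between 60.5 and 204 CPM, highest in tumor 18 and lowest in tumor 25. For Cd79b, too, tumor 18 was highest and tumor 25 lowest. The 5 macrophage markers summed to between 259 and 634 CPM, highest in tumor 36, where Mrc1 alone had 243 CPM. Blk is also expressed by some γδ T cells, and the 4 γδ T cell genes found summed to between 16.2 and 44.8 CPM, highest in tumor 36, where Blk was lowest. The 4 plasmacytoid dendritic cell markers summed to between 96.7 and 282 CPM, highest in tumor 18, where Bst2 alone had 224 CPM. Bst2 and Siglech were highest in tumor 18, but Tcf4 and Ccr9 in tumor 36. The 3 NK cell markers summed to between 1.38 and 3.92 CPM. The 4 keratinocyte markers summed to between 5353 and 13991 CPM, and all 4 were lowest in tumor 36. The sum of the 3 follicular dendritic cell markers found was lowest in tumor 36 as well, at 1444 CPM against at least 3607 in the others. That sum was led by Clu and Mfge8, which other cells also express and which were both lowest in tumor 36. Madcam1 was not, with 1.19 CPM in tumor 36 and its lowest value, 0.253 CPM, in tumor 25. The part of these cells in the members' levels was not tested. Over these 8 lists edgeR called 0 genes in either comparison. DESeq2 called Mrc1 in both comparisons, Tcf4 between the lines and Cd4 between the sites, and gave no p for Madcam1 between the lines. At an unadjusted p under 0.05 stood Mrc1 and Tcf4 in both, with Cd4 and Ptprc between the sites.

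The genes whose pattern over the 6 tumors was most like the mean of the 6 members (Pearson's r of log2 CPM, among 14158 genes with a mean of at least 1 CPM) were Oasl2, Herc6, Ms4a4c, Klrg1, Ifi204, Irf7, Ifi47, Mcpt1, Oas1a and Ifit1, with r from 0.983 to 0.995. Each member was scaled to the same spread before averaging. Pax5, near the limit of detection, therefore weighed as much as the others. With 6 points and so many genes searched, values this high are a description only. Because the members did not share a pattern, each was also compared alone. Cd79a was most like Trim30d, and among the list genes outside the 6 its highest r were 0.96 with Irf4 and 0.95 with each of Mrc1, Tnfrsf13c and Igj. Its lowest was -0.96 with Sdc1. For Blk the highest r among the list genes was 0.95 with Blnk, and for Cd22 it was 0.83 with Cd3e. These genes, too, were chosen after their values were seen.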

How the data were processed

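RNA of 6 tumors was analysed. After trimming, the authors used HISAT2 (Galaxy 2.1.0, mm10) for alignment and featureCounts for counting, and they deposited raw counts per gene together with RPKM values. The submitters' processing notes list bcl2fastq, TopHat2 2.0.6 and HTSeq instead, and the annotation is not given in the sources used here. Every count is even, as when both ends of a pair are counted.

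Groups came from the sample labels. The counts went into edgeR 4.0.16 (R 4.3.3; filterByExpr, TMM, glmQLFit and glmQLFTest, Benjamini-Hochberg adjustment over all genes tested, threshold 0.05), FSP1-Cre;NT3 against Osx-Cre;NT3 and perineal against trunk. Each tumor came from 1 mouse. Alternatives were DESeq2 1.42.0, library sizes alone, upper-quartile scaling, other filters, halved counts, the other factor as covariate, subsets by site or line, and each tumor left out. The tests were first run on simulated data.

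The 6 genes and all lists were chosen with earlier results of these data known. Of 99 list genes, 97 were found under a current or older symbol, and the 2 others were not analysed. Some further genes are not reported here. Named genes are the 6 members, the most abundant of each list and the 10 genes most like the members, and others, named for a call, an unadjusted p, a zero count or their pattern, were chosen after their values were seen. Ratios between genes, comparisons of each member alone and correlations without single tumors were also added after the data were seen. RefSeq promoter sequences (GRCm38.p6) and GENCODE M21 served as reference.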

Additional observations from a re-analysis of the deposited data

Results flagged for a closer look

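In 22 results over the 6 tumors, the gap between the highest or lowest tumor and its nearest neighbour was compared with Dixon's critical value for 6 samples. A wider gap was found in 3, where chance gives 1.1, and each concerned FSP1-Cre;NT3 tumor 36. Blk in tumor 36 was at 2.19 on the log2 CPM scale, where the next lowest tumor was at 3.14. The summed plasma cell genes were at 10.57 on the log2 CPM scale in tumor 36, where the next highest tumor was at 9.84. The genes of that sum did not move together, since Igj made up 814 of 1519 CPM in tumor 36, while Sdc1, which made up 778 of 915 CPM in tumor 13, was lowest in tumor 36 at 402 CPM. The summed follicular dendritic cell markers were at 10.50 in tumor 36, where the next lowest tumor was at 11.82. Cd79a and Ms4a1, although highest in tumor 36, were not far enough from tumor 27 on the log2 scale to be singled out.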

How the results depend on the processing

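Of 146 values of the members' fold changes under another setting, 133 kept their direction, 13 turned, and 0 passed an adjusted p-value of 0.05. The turns concerned Cd79b and Cd22, whose differences were close to 0, and Pax5, whose difference between the sites was imprecise (0.10, standard error 1.05). With library sizes alone, which moved the median of all genes by 0.11 between the lines, Cd79b turned to 0.0755 between the lines and to 0.049 between the sites. Cd22 between the lines turned to -0.22 with site as a covariate and to -0.23 among trunk tumors alone. With each tumor left out in turn, Cd79b ran from -0.23 to 0.23 between the lines and from -0.17 to 0.13 between the sites, Cd22 from -0.21 to 0.25 and from -0.0311 to 0.36, and Pax5 between the sites from -1.45 to 0.81. Over all genes, DESeq2 called 412 between the lines and 598 between the sites, against 0 with edgeR. With a tumor left out, edgeR called from 0 to 567 genes between the sites, 567 without tumor 27 and 2 without tumor 25. The cause was not tested. The members' CPM moved by less than their spread in 12 of 12 values with other library sizes. Cd79a and Ms4a1 could not be tested with at least 10 counts in every tumor, and Pax5 only under some settings. No paired analysis was possible because the lines share no replicate numbers. A tumor left alone in its group was assumed to vary like the others. Depth limits Pax5 and the lowest values of Cd79a and Ms4a1.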
